A study of Xenopus laevis with 8 samples.

Results

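The genes described here are those of the red blood cells in hindlimb buds of *Xenopus laevis* tadpoles: globin chains, the red cell genes slc4a1 and gata1, and the heme synthesis gene alas2. Members were all probe sets of the array whose annotation gave 1 gene symbol and named hba, hbb, hbd, hbe, hbg or hbz with any number, or alas2, slc4a1 or gata1. Of 15491 probe sets, 10 fitted, each of a different gene: 7 of globin chains and 3 of slc4a1.L, gata1.L and gata1.S. Another probe set carried the symbols of hba3.L and hba4.S together and was kept apart. As X. laevis carries the chromosome sets of 2 ancestral species, many of its genes exist as a copy on a long chromosome (.L) and one on a short chromosome (.S). RefSeq (assembly Xenopus_laevis_v10.1, used for names and gene order only) lists 17 genes that the same rule would name, and 7 of them, among them alas2.L, alas2.S and hba1.L, were not analysed here.

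The 8 arrays came from whole hindlimb buds of tadpoles at stage 52, 4 of animals kept for 24 h with 1 μg/ml cyclopamine and 4 of animals kept as long with ethanol alone, the solvent of the drug. Cyclopamine is a plant alkaloid that blocks Hedgehog signaling at Smoothened. The RNA on an array came from 18 to 22 buds combined, and an ethanol and a cyclopamine pool of the same clutch that were exposed and processed together form each of 4 pairs. Clutch A gave pairs 1 and 2, clutch B gave pairs 3 and 4, and the labels name no strain. The 8 RNA extracts hybridized were chosen from a larger number. The values are intensities on a linear scale, and the tests used log2 of quantile-normalized intensities with all values below 43.7, their 20th percentile, raised to that value, here called the floor. The array medians ranged from 191.6 to 221, and the 2% trimmed mean was 500.07 or 500.08 on every array. Of the genes fixed as limb bud markers, 8 had a probe set and 8 were above the floor on at least 1 array.

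Hemoglobin is built of alpha-type and beta-type globin chains, each holding a heme group. Frogs use different chains before and after metamorphosis: tadpole red cells carry larval chains, which adult chains replace as the animal changes. Whole buds were taken and the protocol describes no removal of blood. The red cells of frogs keep their nucleus. GATA1 is the transcription factor that drives red cell genes, SLC4A1 is the anion exchanger of the red cell membrane, and ALAS2 makes the first heme precursor in red cells. A synonym in RefSeq names hba3.L as Ta-globin and hbg2.L as beta-T2, where T stands for tadpole, and hba4 is also a larval alpha chain, so that these 3 were taken as larval type. For hbg2.L this rests on the name beta-T2 alone, as its synonyms also include hbb2, a name otherwise given to an adult chain. hba1.S and hbg1.L (synonym hbb1) were taken as adult type. hba2.L has both hba2 and hba5 as synonyms, an adult and a larval name, and hbd.S is called hbb or hbd, so that these 2 were left without a type. In RefSeq gene order, hba2.L, hba3.L, hbz.L, hba1.L and hbg1.L follow each other directly, as do hba4.S, hba1.S and hbg2.S on the short chromosome.

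In these buds the 3 larval-type chains and both chains without a settled type had intensities of at least 14662 on all 8 arrays, whereas both adult-type chains were near or at the floor. hba3.L, a larval alpha chain, had deposited intensities of 14837, 17165, 15945 and 17002 on ethanol arrays 1 to 4 and of 16671, 15596, 16178 and 15127 on cyclopamine arrays 1 to 4. These 8 values lay within 1.16-fold of each other, and the groups overlapped. hba4.S, the larval alpha chain of the short chromosome, had 19153, 36133, 15718 and 27829 in ethanol and 27111, 28573, 14662 and 20199 after cyclopamine. It spanned 2.46-fold, with both arrays of pair 3 lowest and ethanol array 2 highest. hbg2.L, a larval beta-type chain, had 25043, 38708, 23549 and 30284 in ethanol and 30318, 32488, 23115 and 27034 after cyclopamine. Its order was similar to that of hba4.S, again with pair 3 lowest, over a narrower 1.67-fold range. hba2.L had 26514, 40891, 25052 and 32742 in ethanol and 32579, 30635, 25049 and 27370 after cyclopamine. Pair 3 was lowest here too, and the values spanned 1.63-fold. hbd.S, a beta-type chain by its symbol, had 31165, 42469, 31745 and 36354 in ethanol and 37403, 36892, 31914 and 35142 after cyclopamine. It varied by 1.36-fold, and its 3 lowest arrays were ethanol arrays 1 and 3 and cyclopamine array 3.

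The adult-type chains showed little or no signal. hba1.S, the adult alpha chain, had intensities of 48.8, 89.1, 39.3 and 96.0 in ethanol and of 81.4, 39.4, 68.3 and 48.0 after cyclopamine. After normalization it was at the floor on 1 ethanol and 2 cyclopamine arrays, so that its differences are limited by the floor. hbg1.L, the adult beta-type chain, ranged from 2.7 to 23.6 and was at the floor on all 8 arrays, which left it out of the tests. Different probe sets bind their targets with different strength, so that the brightness of the larval against the adult probe sets is not a ratio of their transcripts, and closely related globin transcripts can bind to each other's probes. The probe set with both larval alpha symbols ranged from 27189 to 40884, with ethanol array 3 lowest and ethanol array 2 highest.

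**Figure D1:**
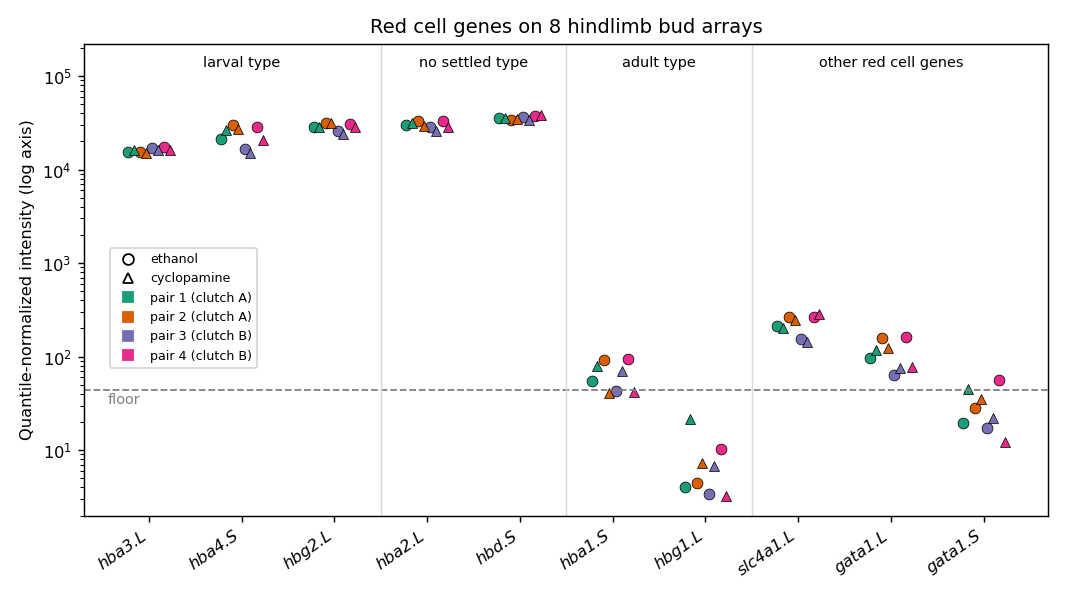
Quantile-normalized intensity (log axis) of the 10 member probe sets on each of 8 arrays, with circles for ethanol, triangles for cyclopamine and 1 color per pair; the dashed line is the floor of 43.7. The 3 larval-type chains and the 2 without a settled type lie far above the floor on every array, hba1.S lies around it, and hbg1.L lies below it on all 8 arrays.

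The other red cell genes had lower intensities than the 5 bright globin chains. slc4a1.L, the gene of the red cell anion exchanger, had deposited intensities of 207.4, 244.6, 160.0 and 266.4 on ethanol arrays 1 to 4 and of 206.2, 236.2, 145.4 and 305.5 on cyclopamine arrays 1 to 4. Both arrays of a pair stood close together, with pair 3 lowest and pair 4 highest. gata1.L had 90.1, 148.1, 59.9 and 161.9 in ethanol and 121.1, 119.9, 73.9 and 87.7 after cyclopamine. Pair 3 was lowest again, and pair 4 differed most within itself. All values of gata1.L lay below the array medians of 191.6 to 221, and those of pair 3 were nearest to the floor of 43.7. gata1.S had 15.4 to 58.3 and was above the floor on 2 arrays, ethanol array 4 and cyclopamine array 1, so that its size of change cannot be read. On the quantile-normalized log2 scale, the SD over 8 arrays was 0.37 for hba4.S, 0.37 for slc4a1.L and 0.51 for gata1.L, against 0.07 for hba3.L, 0.07 for hbd.S, 0.12 for hba2.L and 0.14 for hbg2.L. hba1.S had 0.48 and gata1.S 0.12, both with arrays at the floor, and the median SD over all genes tested was 0.26. The larval alpha chains hba3.L and hba4.S thus differed in spread among the same 8 pools, and that difference was not tested. The part of the brightness of a probe set in these SDs was not tested either.

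Most but not all of the members above the floor on all arrays were lowest in pair 3. Of the 7 members above the floor on all arrays, 5 (hba4.S, hba2.L, hbg2.L, slc4a1.L and gata1.L) had both arrays of pair 3 below all 6 others, with the values as deposited and after quantile normalization. hba3.L and hbd.S did not have this order. Of all 12380 genes or unnamed probe sets tested, 3.19% had this order. The 12380 include genes at the floor on some arrays, whose tied values can prevent this order, unlike the 7 members. The 5 came from the same pools, and related globin transcripts can bind to each other's probes, so that they are not separate observations. None of the 7 was lowest on both arrays of pair 1, 2 or 4, an order that 2.38%, 9.93% and 2.54% of all genes had, and the pair was picked after its values were seen. The globin level of an array was taken as the mean, over the 5 globin probe sets above the floor on all arrays, of log2 intensity minus the mean of that probe set over 8 arrays. With the values as deposited it was −0.18, 0.39, −0.24 and 0.13 on ethanol arrays 1 to 4 and 0.13, 0.12, −0.26 and −0.09 on cyclopamine arrays 1 to 4. Ethanol array 2 thus held the most globin signal and cyclopamine array 3 the least, a range of 0.65 on the log2 scale, or 1.57-fold. After quantile normalization the level was −0.03, 0.11, −0.11 and 0.16 in ethanol and 0.07, 0.05, −0.22 and −0.02 after cyclopamine, a range of 0.38 on the log2 scale. The lowest array was the same and the highest was ethanol array 4. The lowest was instead ethanol array 3, also of pair 3, with array medians subtracted. The same array was lowest with either lower floor and without a filter on dim genes. These settings also bring in dim adult-type probe sets, so that their level is not that of the 5 alone.

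Quantile normalization gives the same value to the same rank on every array, and the globin probe sets lie at the bright end of the arrays. Of 15491 probe sets on an array, hbd.S ranked 1 to 8, hba2.L 9 to 46, hbg2.L 13 to 62, hba4.S 22 to 148 and hba3.L 123 to 148. The intensity exceeded by 1 in 1000 probe sets was 27412, 37930, 27443 and 30314 on ethanol arrays 1 to 4 and 31860, 31927, 30263 and 29813 on cyclopamine arrays 1 to 4. It was thus highest on ethanol array 2, as the deposited globin level was, and the part of this bright end in the globin values was not tested. hbd.S on every array and other globin probe sets on some arrays lie above this intensity, so that it is not independent of the globin values. slc4a1.L, which is not in that range, differed by 2.10-fold between its lowest and highest array as deposited and by 1.99-fold after quantile normalization. As the trimmed mean was nearly the same on every array, the values are relative and count no cells. Fewer red cells in a pool, less RNA per red cell and a larger part of other RNA cannot be told apart in these data.

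**Figure D2:**
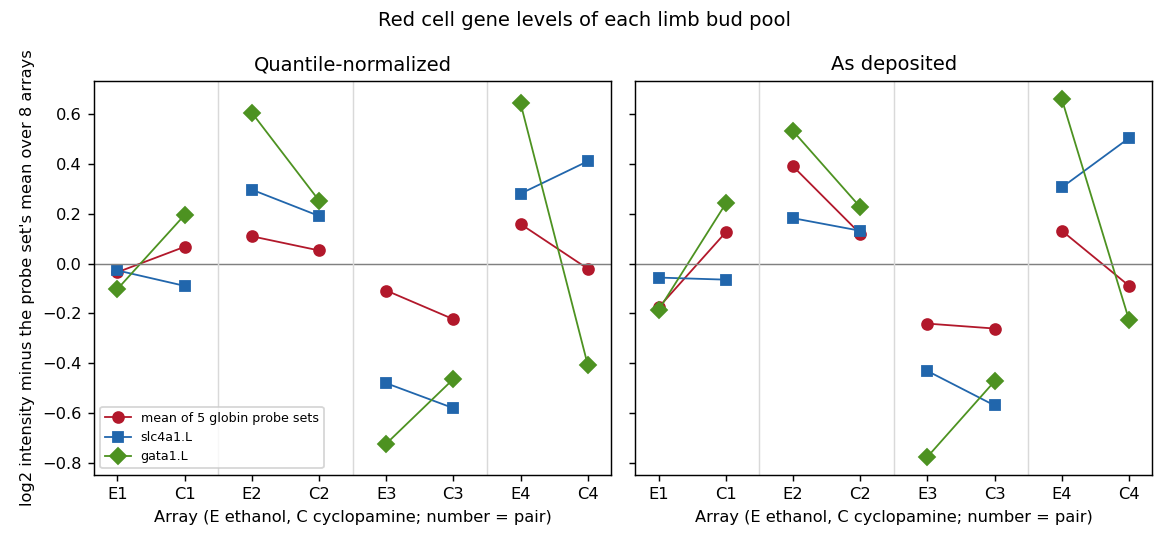
Level of the globin probe sets (mean of 5), of slc4a1.L and of gata1.L on each array as log2 intensity minus the mean of each probe set over 8 arrays, after quantile normalization (left) and as deposited (right); E is ethanol, C is cyclopamine, and lines join the arrays of a pair. All 3 measures are below 0 on both arrays of pair 3 in both panels, and within pair 4 slc4a1.L and gata1.L differ in opposite directions.

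Markers of other cells were not all lowest in pair 3. The 8 measured limb bud genes summed to 11250 on ethanol array 3, their highest, and to 7410 on cyclopamine array 3, with the lowest sum of 5021 on cyclopamine array 2. Pair 3 had summed intensities of the 13 measured muscle marker genes of 9546 and 8336, within the range of 2350 to 12013 over all arrays. White blood cell markers (6 of 10 with a probe set were measured, the other 4 at the floor on all arrays) summed to 949 to 2294 in ethanol and 1044 to 2438 after cyclopamine, with cyclopamine array 3 highest, 1 of the 2 arrays of pair 3. The mean log2 intensity of these 6 genes was instead highest on cyclopamine array 2, at 7.96. It was 7.61 on ethanol array 3 and 7.71 on cyclopamine array 3, and lowest on ethanol array 1, at 7.04. Of the 5 measured endothelial markers, the sum was 1141 to 1577 in ethanol, with ethanol array 3 highest, and 1022 to 1897 after cyclopamine. Cartilage markers summed to 9611 on cyclopamine array 4 and to 4548 to 5893 on the others. Epidermis markers (5 measured) summed to 3106 to 8608 and nerve markers (7 measured) to 310 to 368. The only thrombocyte marker measured, thbs1.L, stood at 43.7 to 67.9, close to the floor. The part of these cell types in the red cell values was not tested.

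The comparison of cyclopamine with ethanol asks whether 24 h with the drug changed these genes. Whether Hedgehog signaling was blocked in these buds was not tested here. None of the 9 measured members passed the test. The mean log2 intensity of hbd.S was 15.12 ± 0.07 in ethanol and 15.12 ± 0.08 with cyclopamine (mean ± SD of 4 arrays), a difference of −0.01 with a 95% confidence interval of −0.20 to 0.19. hba3.L had 13.98 ± 0.09 and 13.95 ± 0.05 in that order, a difference of −0.03 (interval −0.22 to 0.17). These 2 chains had the narrowest intervals of the 9 members. Quantile normalization brought the SD of hbd.S over 8 arrays from 0.15 to 0.07, and that of hba3.L only from 0.08 to 0.07. Whether probe sets as bright as the globin chains still follow the amount of RNA was not tested. hba2.L had a difference of −0.11 (standard error 0.10) and hbg2.L one of −0.05 (standard error 0.12). hba4.S stood at 14.40 ± 0.39 with cyclopamine against 14.51 ± 0.40, and its interval of −0.69 to 0.46 was wider. slc4a1.L, with a difference of −0.03, had an interval of −0.61 to 0.54, and gata1.L, with −0.21, one of −0.97 to 0.55. hba1.S had −0.24 (standard error 0.31), limited by the floor.

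In limma over all 12380 genes or unnamed probe sets, 0 of 9 members had an adjusted p under 0.05 and 0 of 9 an unadjusted one, with 0.0162% and 6.28% of all genes called in the same way. The methods' t-test also called 0 of 9, before and after adjustment. The lowest p was 0.327, for hba2.L (adjusted p = 0.937 in limma). The log2 difference was below 0 for 9 of 9 members, with a median of −0.07 against 0.00 over all genes tested. Of all genes tested, 50.1% had a difference above 0. The 9 members include gata1.S, at the floor on most arrays, whose sign depended on the floor. Its difference was 0.056 with the 10th percentile as the floor and −0.067 with a floor of 1 intensity unit. Several members had similar orders of the pools, so that the signs of the 9 are not separate observations. With the values as deposited hbd.S and slc4a1.L had differences of 0.00. The cyclopamine and ethanol values overlapped for 9 of 9 members, and 3.51% of all genes had groups that did not.

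Within most pairs the bright globin chains differed in the same direction in the values as deposited, and the direction was not the same in all pairs. With the values as deposited, hba4.S differed by 0.50 between cyclopamine and ethanol on the log2 scale in pair 1, by −0.34 in pair 2, by −0.10 in pair 3 and by −0.46 in pair 4. hba2.L had 0.30, −0.42, −0.00017 and −0.26 in the same order, and hbg2.L had 0.28, −0.25, −0.03 and −0.16. In pair 1 all 5 bright chains were thus higher after cyclopamine, and in pairs 2 and 4 all 5 were lower, with hba3.L at 0.17, −0.14 and −0.17 and hbd.S at 0.26, −0.20 and −0.05 in pairs 1, 2 and 4. The intensity exceeded by 1 in 1000 probe sets was also higher on the cyclopamine array in pair 1 and lower in pairs 2 and 4. In pair 3 it was higher on the cyclopamine array as well, at 30263 against 27443, while the chains had −0.10 to 0.02. Globin probe sets are among those above this intensity, so that it is not a measure separate from the chains. After quantile normalization, hba4.S still had 0.32, −0.15, −0.15 and −0.48 in pairs 1 to 4, and hba2.L had 0.10, −0.17, −0.13 and −0.21. hbd.S then had 0.00, 0.05, −0.12 and 0.03, so that the chains no longer shared a direction in pairs 2 and 4. In pair 1 hbd.S then did not differ. In pair 3 all 5 were then lower after cyclopamine, with hba3.L at −0.05 and hbg2.L at −0.13. gata1.L differed by 0.43, −0.30, 0.30 and −0.88 in pairs 1 to 4 as deposited, while slc4a1.L had −0.01, −0.05, −0.14 and 0.20. In pair 4 the 2 genes therefore differed in opposite directions in the same pools.

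The clutches were compared because each is a separate brood, and none of the 9 measured members passed the test. gata1.L had a mean log2 intensity of 6.46 ± 0.60 in clutch B and 6.94 ± 0.29 in clutch A (SD, n = 4 arrays each), a difference of −0.47 with an interval of −1.19 to 0.24. hba4.S stood at 14.26 ± 0.41 and 14.66 ± 0.21, a difference of −0.40 (interval −0.91 to 0.11). hba3.L had 14.02 ± 0.05 and 13.92 ± 0.04, a difference of 0.10 (interval −0.07 to 0.28), in the other direction from hba4.S. The sign of this difference was reversed when array medians were subtracted, to −0.09. hbg2.L had −0.15, hba2.L −0.10 and slc4a1.L −0.18. In limma with treatment as a covariate, 0 of 9 members had an adjusted p under 0.05 and 0 of 9 an unadjusted one, with 1.28% and 21.9% of all genes called in the same way. The lowest adjusted p was 0.334, for hba4.S. This fit took the 4 arrays of a clutch as independent, although they came from pairs processed together. With the pair as a block, 0 members passed as well. The median of the members was −0.11 on the log2 scale against −0.01 over all genes tested. The clutches overlapped for 9 of 9 members, and 11.6% of all genes had clutches that did not. Pair 3, of clutch B, was lowest for hba4.S, hba2.L, hbg2.L, slc4a1.L and gata1.L. The ethanol and cyclopamine arrays of pair 4, also of clutch B, stood at 14.81 and 14.33 for hba4.S. They stood at 7.34 and 6.29 for gata1.L. For both genes, and for hba2.L and hbg2.L, these arrays lay on both sides of the clutch A mean. Without pair 3 the clutch difference of slc4a1.L was 0.25, the other way. How much of these differences belongs to pair 3 alone was not tested.

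The response to cyclopamine was not shown to differ between the clutches for any member. The interaction of treatment and clutch was −0.39 for hba4.S (interval −1.47 to 0.68) and −0.37 for gata1.L (interval −1.91 to 1.18), and 0.10 for slc4a1.L (interval −1.24 to 1.44). Of 9 members, 0 had an adjusted p under 0.05 in limma (lowest unadjusted p 0.362) and 0 an unadjusted one, with 0% and 3.72% of all genes called. With 2 arrays for each treatment and clutch, these intervals are wide.

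**Figure D3:**
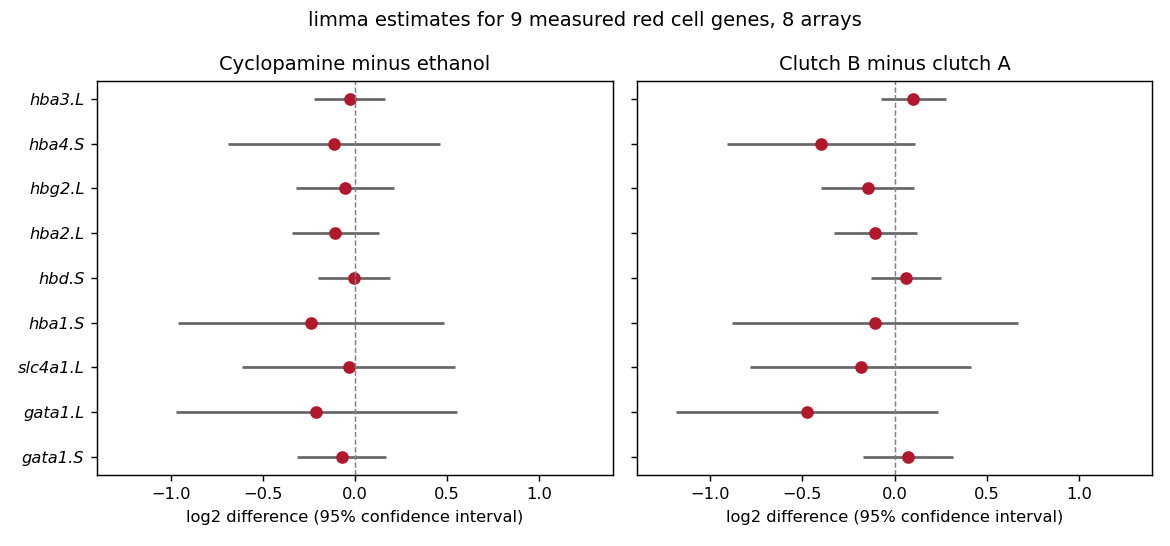
Log2 differences with 95% confidence intervals from limma for the 9 measured members, cyclopamine minus ethanol (left) and clutch B minus clutch A (right), on 8 arrays. Every interval includes 0, and those of hba3.L and hbd.S are narrower than those of gata1.L, hba1.S and slc4a1.L.

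Heme is made in a chain of enzymes from the aminolevulinate synthases to ferrochelatase. The erythroid synthase alas2 was not analysed here, and its general counterpart alas1 was. Of 7 measured genes of heme synthesis and its mitochondrial carriers, none passed the test after cyclopamine over all genes, while 1 had a higher and 0 a lower value with unadjusted p under 0.05, against 2.4% and 3.88% of all genes. That gene was alas1.L, with log2 intensities of 7.11, 7.37, 7.45 and 7.30 on ethanol arrays 1 to 4 and of 7.49, 8.03, 8.37 and 7.61 on cyclopamine arrays 1 to 4. Its groups did not overlap, as in 3.51% of all genes, so that it was higher in 4 of 4 pairs. The difference was 0.57 (standard error 0.20), with an adjusted p of 0.697 in limma. alas1.S had 0.08 (standard error 0.17). urod.L, the gene of uroporphyrinogen decarboxylase, had −0.19, and alad.S, the gene of the enzyme after the synthase, −0.09.

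alad.S separated the clutches. Its log2 intensities were 9.25, 9.56, 9.03 and 9.56 on the clutch A arrays (ethanol 1 and 2, cyclopamine 1 and 2) and 8.53, 8.92, 8.76 and 8.56 on the clutch B arrays (ethanol 3 and 4, cyclopamine 3 and 4). All 4 values of clutch B were below all 4 of clutch A, an absence of overlap that 11.6% of all genes had in either direction, with a difference of −0.66 (standard error 0.16) and an adjusted p of 0.0843 in limma, which missed the threshold. fech.L, the gene of ferrochelatase, had −0.38 (standard error 0.18). The median clutch difference of the 7 genes was −0.25, against −0.01 over all genes tested, and 5 of 7 were below 0. Of all genes, 48.5% had a clutch difference above 0.

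Heme oxygenase opens the heme ring. Of 3 measured genes of heme breakdown, hmox1.S had log2 intensities of 7.48, 7.31, 7.47 and 6.97 on ethanol arrays 1 to 4 and of 8.04, 7.71, 7.90 and 8.60 on cyclopamine arrays 1 to 4. Its groups did not overlap, again as in 3.51% of all genes, so that it was higher in 4 of 4 pairs. The difference was 0.75 (standard error 0.21), and its adjusted p of 0.582 in limma missed the threshold. The other copy, hmox1.L, had 0.16 (standard error 0.19), and hmox2.S had 0.08. The difference between the hmox1 copies was not tested.

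**Figure D4:**
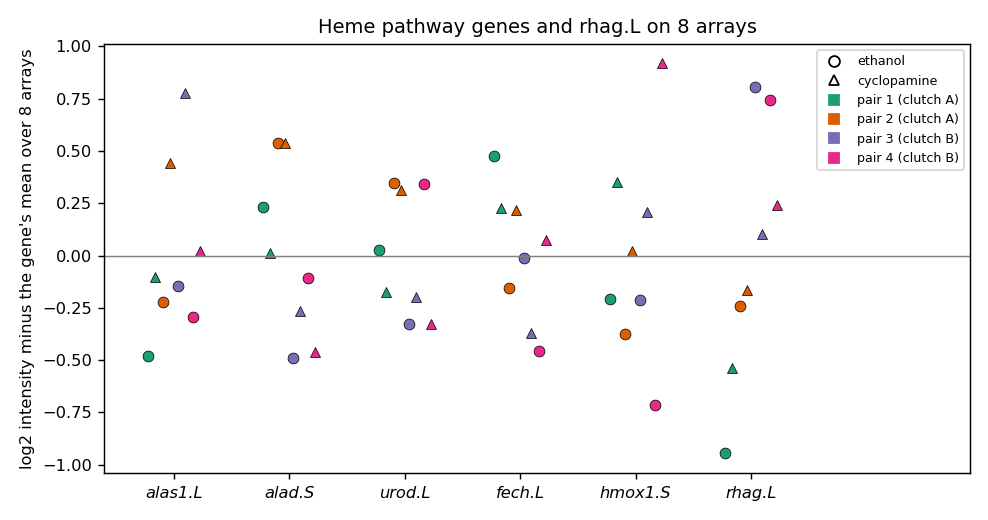
Log2 intensity of 5 genes of heme synthesis and breakdown and of rhag.L, minus the mean of each gene over 8 arrays; circles are ethanol, triangles cyclopamine, and colors mark pairs. alas1.L and hmox1.S are higher on the cyclopamine array in 4 of 4 pairs, and alad.S is lower and rhag.L higher on every clutch B array than on every clutch A array. Of all genes, 11.6% had clutches that did not overlap.

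Of 6 measured genes of the red cell membrane and its skeleton, none passed the test in either comparison. Their summed intensity was highest on ethanol array 3, at 1843, whereas that of the heme synthesis genes was lowest there, at 5724. The sum is weighted to add1.S, the brightest of the 6, with a log2 intensity of 10.32 on that array. The mean log2 intensity of the 6 genes was instead highest on cyclopamine array 4, at 7.28. It was 7.27 on ethanol array 4 and 7.25 on ethanol array 3. For the heme synthesis genes this mean was also lowest on ethanol array 3, at 8.77. rhag.L, the gene of a membrane glycoprotein of the Rh complex, had log2 intensities of 5.72, 6.43, 6.13 and 6.50 on the clutch A arrays and of 7.47, 7.41, 6.77 and 6.91 on those of clutch B, in the order given for alad.S. It was higher in clutch B by 0.95 (standard error 0.23, adjusted p = 0.0867 in limma). Its highest array was ethanol array 3, on which gata1.L was lowest. The clutches did not overlap for rhag.L, as in 11.6% of all genes. Of the 6 genes, 2 were higher and 0 lower in clutch B at an unadjusted p under 0.05 in limma. Of all genes, 9.8% were higher and 12.1% lower at that p. gypc.S was lower after cyclopamine in 3 of 4 pairs, at −0.36, with 3 of 8 arrays at the floor. Of 9 measured genes of red cell enzymes, 1 was higher and 0 were lower after cyclopamine at an unadjusted p under 0.05, where 2.4% of all genes were higher and 3.88% lower. It was pgd.L of the pentose phosphate pathway, which had a difference of 0.56 (standard error 0.24) and was higher in 4 of 4 pairs. The peroxiredoxin gene prdx2.L had −0.24 and was lower in 4 of 4 pairs. Both genes were picked by their p, and the share of all genes with the same direction in every pair was not counted. Between the clutches, 3 of the 9 were lower and 1 higher in clutch B at an unadjusted p under 0.05, where 12.1% of all genes were lower and 9.8% higher, and none passed after adjustment.

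Of 7 measured transcription factor genes of red cell development, none passed either test. nfe2.S was higher after cyclopamine in 4 of 4 pairs, at 0.20 (standard error 0.09). How many of all genes had the same direction in every pair was not counted. lmo2.S, a partner of TAL1 and GATA1, had −0.34 (standard error 0.18). ldb1.L and ldb1.S, copies of a gene of the same complex that many other cells also use, had clutch differences of 0.33 and 0.38, each at an unadjusted p under 0.05. They were 2 of the 7, where 9.8% of all genes were higher in clutch B at that p. Of 6 genes of iron handling, 0 reached an unadjusted p under 0.05 in either comparison, and none passed in limma. Of all genes, 6.28% reached that p for cyclopamine and 21.9% for the clutches. aco1.L, the iron-sensing aconitase gene, had 0.31 (standard error 0.15) after cyclopamine. Of 7 genes of erythropoietin receptor and KIT signaling, 0 were called at that p in either comparison, against the same 6.28% and 21.9%, and none passed in limma, and the values of stat5b.L were at the floor on 7 of 8 arrays.

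Among named genes above the floor on all arrays, members left out, those most like the quantile-normalized globin level over the 8 arrays were ube2b.S, selenos.L, iws1.S, mrps2.S, hint1.S, ndel1.S, srp72.S and nmrk2.S. The root mean square difference of their centered log2 values from the globin level was 0.058 to 0.069, and its median over 5818 genes with enough spread was 0.25. The 8 were picked as the smallest of the 5818, so that values below the median follow from the choice. Their own SDs were 0.075 to 0.158, against a median SD of 0.26 over all genes tested, so that the 0.25 also reflects more variable genes. The globin level itself had an SD of 0.12 over the arrays, so that the pattern matched is a small one.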

How the data were processed

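RNA of hindlimb buds was hybridized to 8 Affymetrix GeneChip arrays for Xenopus laevis. The authors deposited a linear intensity for every probe set of each array, called normalized in the labels. How they corrected and summarized the signals, and with what software, is not stated in what was read here. The 120 control probe sets were left out of 15611. Gene symbols came from the array's annotation, 2 of them updated through RefSeq, in which 10 of 10 members were found. As log2 array medians differed by 0.206, arrays were quantile-normalized, values under the floor of 43.7 (20th percentile) were raised to it, and values were put on the log2 scale. Probe sets of a symbol were averaged (each member has 1), and of 13718 genes or unnamed probe sets, 12380 above the floor on at least 1 array were tested.

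limma 3.58.1 (R 4.3.3) compared cyclopamine with ethanol with no block, the clutches with treatment as a covariate, and the interaction of both, with Benjamini-Hochberg adjustment over all genes and a threshold of 0.05. The fit was tested on simulated data. These held independent normal noise, with no floor and no likeness within pairs or clutches, so that such features were not covered. At most 0.219% of values were the same on any 2 arrays. The study's design text gives the pairing, and deviations from the group means correlated at 0.349, 0.511, 0.297 and −0.0954 in pairs 1 to 4. Alternatives were other scalings, floors and filters, other handling of probe sets, pair and clutch blocks, the methods' t-test and leaving out each array. Leaving out pair 3 was chosen after seeing the data. The members and gene lists were chosen with earlier results of these data known. Genes named from a list are among the 2 with the smallest p in each direction of a contrast. This choice favors genes with the same direction in every pair. The number of arrays, not of buds, and the spread of a gene among them set the precision. The p-values measure the spread between pools. As each clutch is a single brood, those of the clutch comparison do not measure the spread between broods.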

Additional observations from a re-analysis of the deposited data

Results flagged for a closer look

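gata1.S was marked because a single array stood apart from the 3 others of its group, with a gap of 1 of the group's range. This held for ethanol array 4, at an intensity of 58.3 against 15.4 to 29.0, and for cyclopamine array 1, at 48.0 against 15.4 to 34.8. The other arrays of each group were at the floor, so that the gap follows from it. Of 18 groups of 4 arrays tested, 2 were marked, and chance marks about 1 in 20.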

How the results depend on the processing

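No member passed limma in any setting run: the lowest adjusted p was 0.68 for cyclopamine and 0.0992 for the clutches (gata1.L without ethanol array 4). The replicate block, with the pair number as the block, gave 0 members in each comparison, 2 genes for cyclopamine and 176 between clutches, and changed no call of a member. Over all genes, 2 passed for cyclopamine and 159 between clutches. For cyclopamine, 1 passed with a floor of 1 intensity unit, with the methods' t-test or without pair 3, 4 with the clutch as a block, and 1 to 2 without a single array. Between clutches, 64 passed with the 10th percentile as the floor, 23 with a floor of 1, 4 without pair 3 and 23 to 85 without a single array, the lowest without cyclopamine array 2. Of the 159, 66 were higher and 93 lower in clutch B, against 75 and 66 with the values as deposited. The median of the members without a single array was −0.15 to −0.02 for cyclopamine and −0.21 to −0.02 for the clutches. Leaving out 1 array leaves a lone pool for a treatment and clutch, taken to vary like the others. The range of the globin level over arrays was 0.38, and 0.65 with the values as deposited, 0.81 with array medians subtracted (lowest ethanol array 3), 0.63 with a floor of 1 (over 7 globin probe sets) and 0.20 without pair 3.

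Of 169 member values for cyclopamine, 153 kept their sign and 16 did not. hbd.S turned to 0.0047 as deposited, 0.0025 without ethanol array 3, 0.014 without ethanol array 4, 0.0036 without cyclopamine array 2, 0.019 without cyclopamine array 3 and 0.030 without pair 3. slc4a1.L turned to 0.00019 as deposited, 0.059 without ethanol array 2, 0.053 without ethanol array 4 and 0.15 without cyclopamine array 3. hba4.S turned to 0.0054 without ethanol array 2 and 0.062 without cyclopamine array 3, hba3.L to 0.0025 without ethanol array 4, and hbg2.L to 0.025 without cyclopamine array 3. gata1.S turned to 0.056 with the 10th percentile as the floor and 0.014 without ethanol array 4. Between clutches 13 of 169 turned: hbd.S to −0.12 as deposited and −0.22 with medians subtracted, hba3.L to −0.095 with medians subtracted, gata1.S to −0.30 and −0.44 with the lower floors and −0.017 without ethanol array 4. hba1.S turned to 0.05, 0.12, 0.06 and 0.03 without ethanol array 2, ethanol array 3, cyclopamine array 1 and cyclopamine array 4, and to 0.0030 without pair 3, and slc4a1.L to 0.0036 without cyclopamine array 3 and 0.25 without pair 3. Without a single array, the lowest cyclopamine differences were −0.058 for hba3.L, −0.28 for hba4.S, −0.046 for hbd.S, −0.20 for slc4a1.L, −0.10 for gata1.S, −0.48 for gata1.L and −0.44 for hba1.S (both without ethanol array 3), −0.12 for hbg2.L (without cyclopamine array 2) and −0.15 for hba2.L. Without ethanol array 4 these were −0.032 for gata1.L and −0.076 for hba1.S. The lowest clutch differences were −0.40 for slc4a1.L and, without ethanol array 4, −0.79 for gata1.L, −0.60 for hba4.S, −0.16 for hba2.L and −0.33 for hba1.S. Without ethanol array 3 that of gata1.L was −0.23. The cause was not tested. Differences smaller than the spread of 4 arrays cannot be seen here.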
